A study of Homo sapiens with 5 samples.

Results

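The insulin-like growth factor (IGF) axis was followed in TOV21G cells through 10 genes, the 7 IGF binding proteins IGFBP1 to IGFBP7, the ligand IGF2, its clearance receptor IGF2R and the adaptor IRS1. They were taken as the rows of the count table whose Ensembl identifiers map to these symbols, 10 of 30476 genes in the table. The set was drawn up with earlier results of these data known, and IGFBP4 was chosen by its measured difference between GSK126-treated and untreated EIR cells, so that difference is given as a description without a test.

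TOV21G is an established line of human ovarian clear cell carcinoma. It carries a mutation in ARID1A, a subunit of the SWI/SNF chromatin remodelling complex. RNA-seq of total RNA was available for 5 libraries, 1 of parental TOV21G cells without treatment and 4 of EZH2 inhibitor-resistant (EIR) cells. The EIR cells had been selected from the parental line in GSK126, an inhibitor of the histone methyltransferase EZH2, at 5, 10, 15 and 20 uM in steps, and clones were then picked. Clone 3 and clone 4 were each sequenced untreated and treated with GSK126, 1 library per state, and the dose and duration of that treatment were not given in the sources used here. Only 2 picked clones stand for all EIR cells, and the ARID1A mutation is shared by every library. Nothing states that the libraries of a clone came from separate selections, so the 4 EIR libraries cannot be taken as independent replicates. P-values therefore measure only the spread between these libraries. Against parental cells that spread mixes clones and treatment states. Between the clones, with treatment fitted, the spread that is left may be technical.

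IGF1 and IGF2 signal through the receptor tyrosine kinases IGF1R and INSR, which pass the signal to docking proteins such as IRS1. The secreted binding proteins hold the ligands, extend their life in extracellular fluid and either restrain or deliver them to receptors, and proteases such as PAPPA release the ligand by cutting them. IGFBP1 to IGFBP6 bind IGFs with high affinity and IGFBP7 only weakly, and several of them also act on cells without any ligand. IGF2R carries IGF2 to lysosomes for degradation.

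The libraries held 25479238 to 30764963 estimated counts each, with GSK126-treated clone 4 the shallowest. Of 7 markers of clear cell carcinoma, 6 had a row, and their summed normalized counts were 22562 in parental cells, 24127 to 27846 in clone 3 and 25776 to 26000 in clone 4. PAX8, KRT8 and KRT18 were abundant everywhere and KRT7 was low, at 81.6 to 194 normalized counts, and NAPSA, the aspartic protease used to diagnose this tumour type, reached only 2.01 to 49.4. The adhesion molecule EPCAM had 401 normalized counts in parental cells, 394 and 492 in clone 3, and 0 and 1 raw counts in clone 4. DESeq2 called 3 of the 6 lower in clone 4 than in clone 3, EPCAM, NAPSA and KRT8 (log2 difference -0.65 for KRT8), with a median of -0.44. Of all genes tested 6.52% were called lower in clone 4. Of 5 blood and endothelial markers, 3 had a row and none exceeded 16.9 normalized counts. The part of these marker differences in the results for the IGF axis was not tested, and in bulk libraries fewer cells with a transcript and less RNA per cell cannot be told apart.

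The sequences before the transcription starts of IGFBP3, IGFBP5 and IGFBP4 are shown because IGFBP3 and IGFBP5 separated the parental line and the 2 clones most widely among members above a handful of counts, and IGFBP4 differed most of these members with GSK126. They are RefSeq promoter windows of 250 bases that end at the start site, 5′ to 3′ on the strand of the gene, each placed on GRCh37 by 1 exact match. Capitals mark TATAAA, the TATA box core, and GGGCGG, the GC box bound by SP factors, on either strand, so that CCGCCC is a GC box on the opposite strand.
IGFBP3, chr7:45960872-45961121, minus strand: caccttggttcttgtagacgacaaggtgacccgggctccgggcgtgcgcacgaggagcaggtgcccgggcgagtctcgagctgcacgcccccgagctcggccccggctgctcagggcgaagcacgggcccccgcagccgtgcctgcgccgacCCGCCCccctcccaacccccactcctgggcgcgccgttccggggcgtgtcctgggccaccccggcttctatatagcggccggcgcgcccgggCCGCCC
IGFBP5, chr2:217560273-217560522, minus strand: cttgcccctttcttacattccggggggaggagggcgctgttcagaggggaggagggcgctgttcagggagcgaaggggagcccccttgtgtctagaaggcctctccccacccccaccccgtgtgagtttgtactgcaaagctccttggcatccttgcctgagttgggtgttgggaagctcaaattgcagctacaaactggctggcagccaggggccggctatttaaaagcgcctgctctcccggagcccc
IGFBP4, chr17:38599452-38599701, plus strand: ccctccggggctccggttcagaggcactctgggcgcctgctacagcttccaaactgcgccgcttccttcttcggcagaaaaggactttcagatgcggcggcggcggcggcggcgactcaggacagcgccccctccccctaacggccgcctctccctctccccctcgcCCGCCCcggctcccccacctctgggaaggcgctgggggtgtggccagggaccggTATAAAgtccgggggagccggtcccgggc
The IGFBP3 window held 32 CpG dinucleotides, more than 90.5% of 35116 RefSeq promoters of that length, and 2 GC boxes. The IGFBP5 window held 8 CpG dinucleotides against a median of 11, and neither motif. The IGFBP4 window held 24 CpG dinucleotides, 1 GC box and 1 TATA box. TATAAA occurred in 10.7% of all windows and GGGCGG in 42.6%, and the matches describe letters only. Only these exact strings were counted, so a window without a match may hold a variant of the motif. The IGFBP3 start site lay 602 bases inside the annotated gene.

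In parental cells IGFBP7 and IGFBP2 made up nearly all binding protein RNA, and in EIR cells IGFBP3 and IGFBP5 took a larger share. The comparison of EIR with parental cells asks what differs in cells that grow despite EZH2 inhibition. IGFBP3, on chromosome 7 (45951844 to 45961473 on GRCh37), encodes the main IGF carrier of blood, which is also known to slow growth and favour apoptosis. Its normalized counts (counts divided by the size factor of the library) were 606 in parental cells, 5494 and 6568 in untreated and treated clone 3, and 22816 and 28287 in untreated and treated clone 4. All EIR libraries lay above the parental library, by 9.06-fold in untreated clone 3 to 46.7-fold in treated clone 4. With 1 parental library such a one-sided position is a description only, here and for the genes below. The share of all genes that show it is not given here. The log2 fold change of EIR against parental cells was 4.70 (SE 1.18, adjusted p = 0.00068 in DESeq2). The edgeR quasi-likelihood test placed it just outside the threshold of 0.05 (adjusted p = 0.062).

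IGFBP5, on chromosome 2 (217536828 to 217560272), encodes a binding protein that attaches to extracellular matrix and is prominent in bone and muscle. Its normalized counts were 766 in parental cells, 2011 and 2409 in untreated and treated clone 3, and 20789.7 and 24854 in untreated and treated clone 4. Every EIR library again exceeded the parental library, but clone 3 by 2.62-fold and 3.14-fold and clone 4 by 27.1-fold and 32.4-fold. With this spread the log2 fold change of 4.03 (SE 1.75) did not pass the test in DESeq2 (adjusted p = 0.074). Without untreated clone 3 it passed (adjusted p = 0.036, log2 fold change 4.38), and edgeR gave an adjusted p of 0.24.

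**Figure D1:**
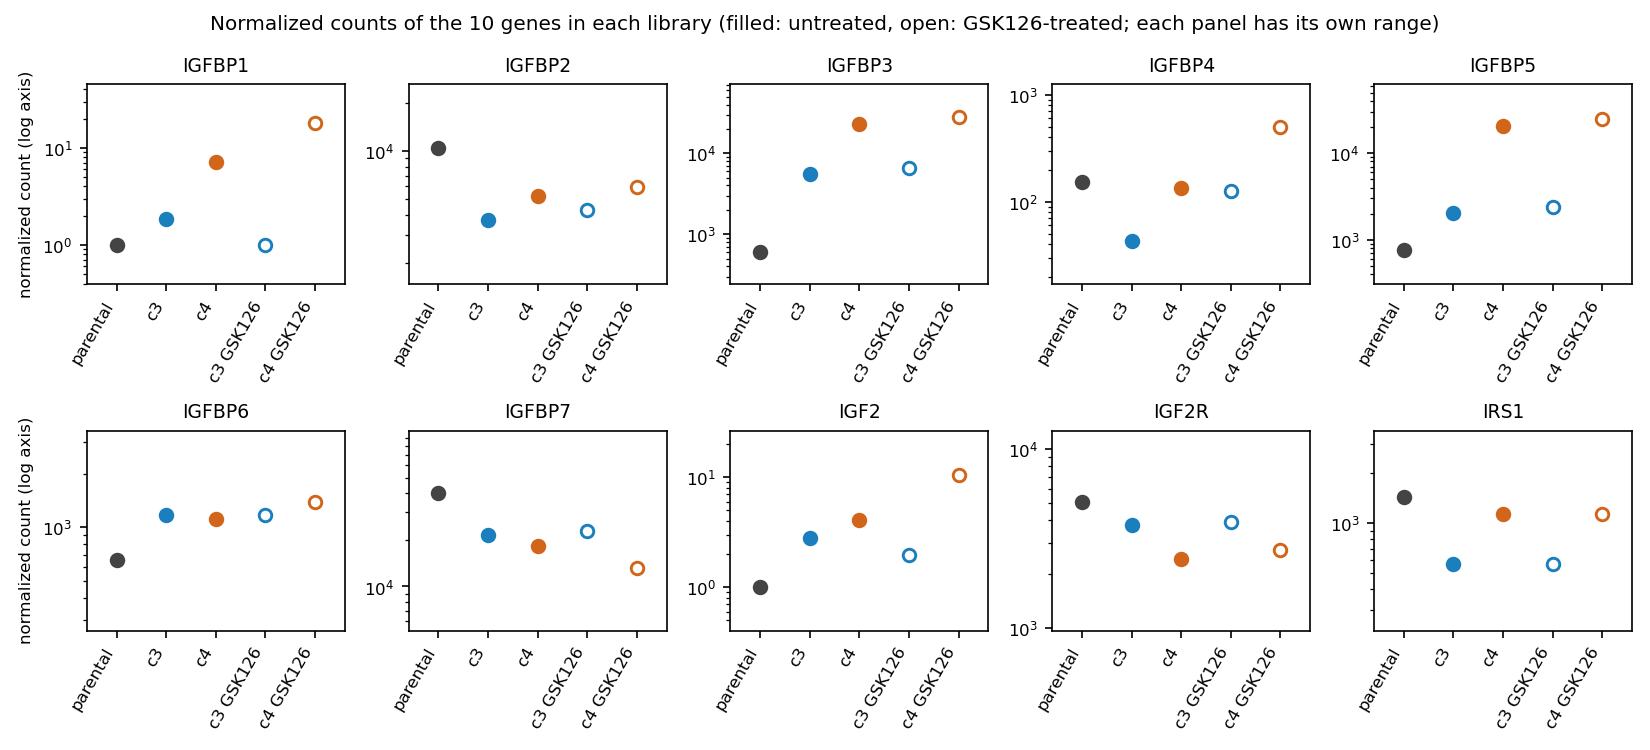
Normalized counts (log axis, with its own range in each panel) of the 10 genes in the 5 libraries, as 1 point per library, in grey for parental cells, blue for clone 3 (c3) and orange for clone 4 (c4), filled if untreated and open if GSK126-treated. IGFBP3 rises from 606 in parental cells to 28287 in treated clone 4, while IGFBP2 and IGFBP7 are highest in parental cells, at 10427 and 39756.

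IGFBP6 was the steadiest of the genes that rose. This binding protein prefers IGF2 over IGF1. Parental cells had 656 normalized counts, clone 3 had 1177 and 1173, and clone 4 had 1109 and 1389, untreated and treated. The EIR libraries did not overlap with parental cells and differed little from each other (mean 1212 ± 122, SD, n = 4). The log2 fold change was 0.89 (SE 0.22, adjusted p = 0.0005 in DESeq2), it passed in edgeR as well (adjusted p = 0.045), and none of the alternatives run changed its call.

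IGFBP2 and IGFBP7 fell. IGFBP2, often raised in ovarian tumours and serum of patients, had 10427 normalized counts in parental cells, 3682 and 4284 in untreated and treated clone 3, and 5238 and 5924 in untreated and treated clone 4. All EIR libraries were below parental cells, by 2.83-fold in untreated clone 3 and 1.76-fold in treated clone 4. The log2 fold change of -1.12 (SE 0.31, adjusted p = 0.0022 in DESeq2) also passed in edgeR (adjusted p = 0.039). After a correction for the GC content of transcripts it was -0.71 and the call was lost (adjusted p = 0.12 in DESeq2). No other alternative ended the call. IGFBP7, a matrix-associated protein with low affinity for IGFs that is silenced in several carcinomas, fell from 39756 to 21344 and 22838 in clone 3 and to 18159 and 13043 in clone 4, untreated and treated. Its log2 fold change was -1.08 (SE 0.34, adjusted p = 0.0086 in DESeq2), and it missed the threshold in edgeR (adjusted p = 0.076) and with treatment as covariate (adjusted p = 0.07 in DESeq2). IGFBP7 overlaps POLR2B on the opposite strand, and whether the counting used strand was not stated, so reads of the overlap are uncertain.

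IGFBP4, IGF2R and IRS1 did not pass the test between EIR and parental cells. IGFBP4, an inhibitory binding protein and the classical substrate of PAPPA, had 154 normalized counts in parental cells, 42.6 and 126 in untreated and treated clone 3, and 135 and 498 in untreated and treated clone 4. The parental value lay inside the range of the EIR libraries (log2 fold change 0.38, SE 1.46, adjusted p = 0.88 in DESeq2). IGF2R, at 5045 normalized counts in parental cells, had 3738 and 3915 in clone 3 and 2419 and 2716 in clone 4, untreated and treated. IRS1 had 1435 in parental cells, 567 and 568 in clone 3, and 1137 and 1139 in clone 4. Both had lower values in every EIR library, with log2 fold changes of -0.66 (SE 0.33, adjusted p = 0.14 in DESeq2) and -0.75 (SE 0.50, adjusted p = 0.28), and missed the adjusted threshold. The unadjusted 95% interval was -1.31 to -0.0046 for IGF2R and -1.72 to 0.22 for IRS1.

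IGFBP1 and IGF2 were close to absent. IGFBP1, a binding protein of liver and decidua that insulin represses, had 1 raw count in parental cells, 2 and 1 in untreated and treated clone 3, and 7 and 17 in clone 4. IGF2, the fetal ligand of the axis, had 1 raw count in parental cells, 3 and 2 in clone 3, and 4 and 10 in clone 4. Parental cells and clone 3 were at or below 3 counts, the floor used here, so no fold change is given, and DESeq2 set neither gene an adjusted p against parental cells. IGFBP3 reached 28287 normalized counts in the library where IGF2 had its highest raw count, 10.

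Of the 8 members that DESeq2 tested between EIR and parental cells, 4 were called, 2 higher and 2 lower, against 25.5% of all 16288 genes tested (12.4% higher, 13.2% lower). The median log2 fold change of the 8 was -0.14, and of all genes tested 0.00. In edgeR 2 of 10 members were called, against 5.73% of all genes. Because the members were chosen with earlier results of these data known, these shares are no test of the set. The plot of ratios to the parental library shows the clones side by side.

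**Figure D2:**
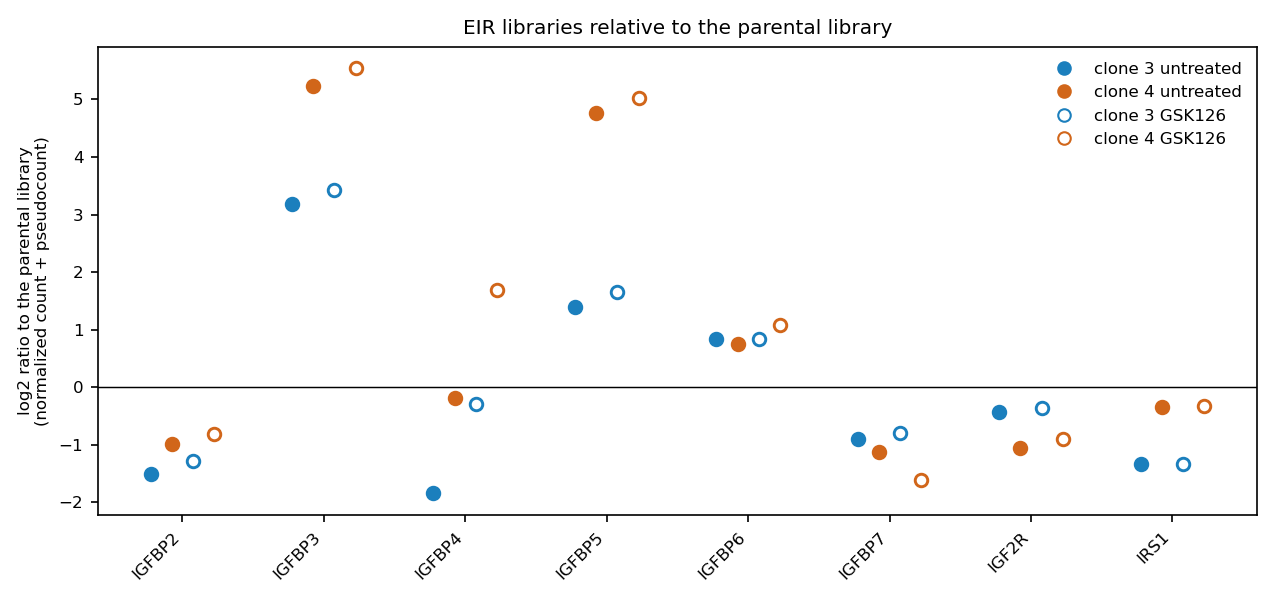
Log2 ratio of normalized counts, with a pseudocount of 0.5, of each EIR library to the parental library for the 8 genes above the floor, as 1 point per library (blue clone 3, orange clone 4, filled untreated, open GSK126-treated). IGFBP3 lies at 3.18 to 5.54, IGFBP5 at 1.39 to 1.65 in clone 3 and 4.76 to 5.02 in clone 4, and IGFBP2, IGFBP7, IGF2R and IRS1 below 0 throughout.

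The change in balance was large in levels per kilobase of transcript, which allow genes to be set against each other. With the median length over annotated transcripts, IGFBP7 held 67.8% of the summed IGFBP1 to IGFBP7 level in parental cells and IGFBP2 26.3%. IGFBP3 and IGFBP5 together held 3.87% in parental cells, 29.3% and 31.4% in untreated and treated clone 3, and 71.9% and 78.0% in untreated and treated clone 4. The size of this share depended on the length assigned to IGFBP5 and IGFBP3. With the longest transcript it was 1.13% in parental cells, 12.5% and 13.8% in clone 3, and 44.6% and 55.3% in clone 4. The order of the libraries was the same under all 3 lengths tried, parental cells lowest, then clone 3, then clone 4. The ratio of IGFBP5 to IGFBP2 counts, which needs no length to be compared between libraries, was 0.0735 in parental cells, 0.546 and 0.562 in clone 3, and 3.97 and 4.20 in clone 4. These 2 genes are neighbours on chromosome 2, 7669 bases apart.

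**Figure D3:**
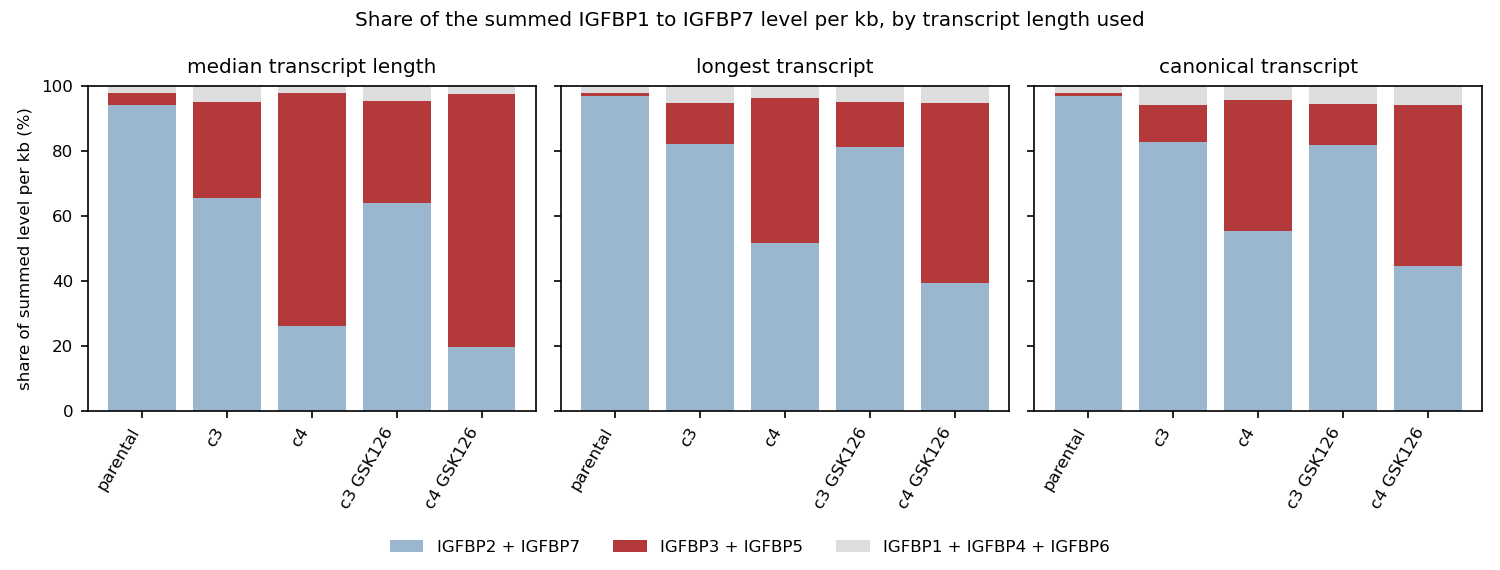
Share (%) of the summed level per kb of IGFBP1 to IGFBP7 in each library, with 3 choices of transcript length. The red part, IGFBP3 with IGFBP5, is smallest in parental cells (0.976% to 3.87%) and largest in treated clone 4 (49.6% to 78.0%).

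The order of levels per kb differed between the clones, so it is given within each. With the median length, untreated clone 3 had IGFBP7 at 17062, IGFBP3 at 6782, IGFBP2 at 4352, IGFBP5 at 2801 and IGFBP6 at 1637, and untreated clone 4 had IGFBP5 at 28955, IGFBP3 at 28168, IGFBP7 at 14516, IGFBP2 at 6191 and IGFBP6 at 1542. Treatment left the order in clone 3 as it was and put IGFBP3 (34922) just before IGFBP5 (34615) in clone 4. IGFBP7 stayed the highest in both libraries of clone 3 under each of the 3 lengths, while in untreated clone 4 it was the highest with the canonical and the longest transcript. Below the binding proteins named here, IGF2R had 431 to 698 per kb over the EIR libraries, IRS1 110 to 222, IGFBP4 19.3 to 226, IGFBP1 0.653 to 11.9 and IGF2 1.23 to 6.60. The ranges of IRS1 and IGFBP4 overlapped, as did those of IGFBP1 and IGF2.

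The clones differed from each other in 7 of the 9 members that DESeq2 tested, 5 higher and 2 lower in clone 4, against 9.83% of all 17695 genes tested (3.31% higher, 6.52% lower). The median log2 difference of the 9 was 1.00 and that of all genes tested 0.00. In edgeR 5 of 10 members were called, against 6.44% of all genes. This comparison shows how alike 2 EIR clones from the same selection were.

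IGFBP5 and IGFBP3 led. In clone 4 IGFBP5 was 10.3-fold higher than in clone 3, untreated as well as treated, and IGFBP3 4.15-fold higher untreated and 4.31-fold treated. Their log2 differences were 3.36 (SE 0.16, adjusted p = 6.2e-97 in DESeq2) and 2.07 (SE 0.16, adjusted p = 1.6e-37), and both held in edgeR (adjusted p = 7.3e-05 and 0.00044) and without any single library. IRS1, the docking protein that couples the receptors to PI3K, was 2.01-fold higher in clone 4 in either state (log2 difference 1.00, SE 0.22, adjusted p = 0.00011 in DESeq2) and also held without any single library.

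IGFBP4 was 3.18-fold higher in clone 4 than in clone 3 untreated and 3.97-fold higher treated (log2 difference 1.83, SE 0.37, adjusted p = 2.2e-05 in DESeq2, edgeR adjusted p = 0.0021). Without treatment as covariate it no longer passed. Between the clones, the fits without 1 of the 4 libraries also carried no treatment covariate, here and below. They gave log2 differences of 0.68 to 2.86 for IGFBP4. IGFBP2 was 1.42-fold and 1.38-fold higher (log2 difference 0.48, SE 0.17, adjusted p = 0.039 in DESeq2). IGF2R was lower in clone 4 (log2 difference -0.58, SE 0.17, adjusted p = 0.01 in DESeq2), as was IGFBP7 (-0.53, SE 0.18, adjusted p = 0.039). IGFBP2 and IGFBP7 did not pass in edgeR (adjusted p = 0.099 and 0.18), and those 2 genes lost their call when untreated clone 3, treated clone 3 or treated clone 4 was left out, IGF2R when either library of clone 3 was. IGFBP6 differed by 0.07 on the log2 scale (SE 0.21, 95% interval -0.33 to 0.48, adjusted p = 0.95 in DESeq2), and IGFBP1 did not pass (adjusted p = 0.42).

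Genes next to the members were looked at for the same clone difference. Within 1 Mb of IGFBP3, 4 other genes averaged 100 normalized counts or more, and their log2 differences between the clones were -0.30 to 0.45. DESeq2 called 0 of these 4, and 0 had an unadjusted p under 0.05, while edgeR also called 0 and had 1 under 0.05 unadjusted. Within 1 Mb of IGFBP5 there were 8 such genes, of which 2 were higher in clone 4, IGFBP2 and MREG, a melanosome transport protein (log2 difference 1.21). The median of the 8 was 0.47. At an unadjusted p under 0.05 there were 4 of the 8 in DESeq2 and 5 in edgeR, which called 2. IGFBP2 is itself a member. Over all genes tested, DESeq2 called 9.83% and edgeR 6.44%. Of 29847 genes at any level, 3270 in DESeq2 and 5306 in edgeR were under 0.05 unadjusted. Whether the region around IGFBP5 differs from other regions was not tested.

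Few genes passed the test between GSK126-treated and untreated EIR cells. DESeq2 called 1 of 29847 genes between treated and untreated libraries (0.00335%), and 4 genes (0.0134%) with the clone number as replicate block. IGFBP4 was picked from this contrast, so its values are a description only. In clone 3 it went from 46 to 127 raw counts with treatment, a ratio of 2.95 after normalization (95% interval 2.09 to 4.22, counting error only). In clone 4 it went from 133 to 471 raw counts, a ratio of 3.68 (3.03 to 4.50). Each treated library was above the untreated library of its clone, but treated clone 3 (126 normalized counts) stayed below untreated clone 4 (135) and below parental cells (154). The log2 difference was 1.80 without and 1.72 with the replicate block, and 0.49 to 2.85 when 1 library was left out.

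The other members above the floor had ratios nearer to 1. IGFBP3 had treated to untreated ratios of 1.20 and 1.24 in clone 3 and clone 4, IGFBP5 of 1.20 and 1.20, and IGFBP2 of 1.16 and 1.13. IRS1 was level, with ratios of 1.00 and 1.00, and IGF2R gave 1.05 and 1.12. IGFBP6 gave 1.00 and 1.25. IGFBP7 went in opposite directions, with ratios of 1.07 in clone 3 and 0.718 in clone 4. For scale, the log2 ratio of treated to untreated over the 11564 genes that averaged 100 normalized counts or more had an SD of 0.24 in clone 3 and 0.39 in clone 4.

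The gene profile closest to that of IGFBP4 over the 5 libraries was VGF, a neuropeptide precursor, followed by NPIPB12 and GPNMB, a lysosomal and melanosomal glycoprotein. Likeness was the root mean square difference of log2 levels centred on their mean, 0.42, 0.43 and 0.45 for these 3 of 11563 genes, and it is a description. VGF had 89.6 normalized counts in parental cells, 34.3 and 143 in untreated and treated clone 3, and 114 and 674 in untreated and treated clone 4. All 4 genes were lowest in untreated clone 3 and highest in treated clone 4. NPIPB12 belongs to a family of near-identical copies, and its counts are uncertain.

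**Figure D4:**
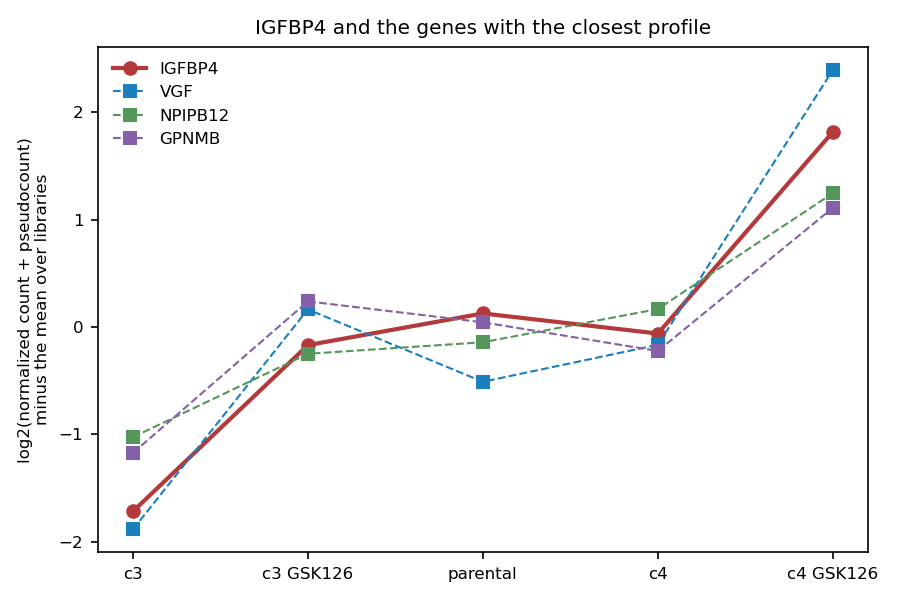
Log2 of normalized counts plus 0.5, less the mean over the 5 libraries, for IGFBP4 (solid) and the 3 genes of closest profile (dashed), with lines only joining the points of a gene. Untreated clone 3 is lowest and treated clone 4 highest for IGFBP4 (42.6 and 498 normalized counts) and for each of the other genes.

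Other genes of the pathway were taken from 6 lists with 42 genes, of which 38 had a row. The lists were chosen with earlier results of these data known. Between EIR and parental cells 28 could be tested and 13 were called, 6 higher and 7 lower (median log2 fold change -0.10), beside 25.5% of all genes tested, with a median of 0.00. In edgeR 7 of the 38 were called, beside 5.73% of all genes. Between the clones 29 could be tested and 10 were called, 6 higher and 4 lower in clone 4 (median -0.02), beside 9.83% of all genes tested. With GSK126 DESeq2 called 0 of 38, with 2 at an unadjusted p under 0.05, and edgeR called 0, also with 2. Over all 29847 genes, 117 in DESeq2 and 232 in edgeR were under 0.05 unadjusted. The replicate block left the calls at 0 of 38 in either tool. It put 7 of the 38 in DESeq2 and 10 in edgeR under 0.05 unadjusted, beside 282 and 839 of all genes.

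The receptors split. INSR, the insulin receptor, which in one splice form also binds IGF2, fell from 946 normalized counts in parental cells to 293 and 360 in clone 3 and 284 and 363 in clone 4, untreated and treated. The log2 fold change was -1.54 (SE 0.26, adjusted p = 1.9e-07 in DESeq2, edgeR adjusted p = 0.011), and no alternative ended the call. IGF1R, the main signalling receptor, did not pass against parental cells (193 normalized counts) but divided the clones, at 114 and 142 in clone 3 and 357 and 786 in clone 4. Its log2 difference between them was 2.06 (SE 0.32, adjusted p = 5.0e-09 in DESeq2), again with no alternative that ended the call. IGF1 had at most 4.23 normalized counts in any library.

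Of 5 adaptors tested, 3 were called between the clones, beside 9.83% of all genes tested, and 1 between EIR and parental cells, beside 25.5%. IRS2 (log2 difference 0.72, adjusted p = 0.042 in DESeq2) and GRB14 (1.04, adjusted p = 0.00012) were higher in clone 4, and GRB10, which like GRB14 damps insulin and IGF1 receptor signalling, was lower (-1.48, adjusted p = 9.1e-08). IRS2 lost its call without treatment as covariate and without any library but untreated clone 4, and GRB14 without treated clone 3. SHC1, which leads from the receptors to RAS, was lower in EIR cells (log2 fold change -0.64, adjusted p = 0.027 in DESeq2) but it lost the call in 7 alternatives, among them edgeR (adjusted p = 0.096) and GC correction, which brought it to -0.32 (adjusted p = 0.30 in DESeq2).

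Among 8 proteases of binding proteins and their inhibitors, 6 could be tested and STC1 and PAPPA were called, beside 25.5% of all genes. Stanniocalcin 1 inhibits PAPPA, and it fell from 25098 normalized counts to between 3134 and 5138 in the EIR libraries (log2 fold change -2.66, SE 0.31, adjusted p = 2.1e-15 in DESeq2, edgeR adjusted p = 0.002). PAPPA, the metalloprotease that cuts IGFBP4 and IGFBP5, was higher, with 1467 normalized counts in parental cells against 2186 to 2558 (log2 fold change 0.67, SE 0.18, adjusted p = 0.0018 in DESeq2), though not in edgeR (adjusted p = 0.073), with the libraries of each clone summed (adjusted p = 0.12 in DESeq2) or with treatment as covariate. ADAM9 was lower in clone 4 than in clone 3 (log2 difference -0.65, adjusted p = 0.0066 in DESeq2) but not in edgeR (adjusted p = 0.12) or when either library of clone 3 was left out.

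Proteins that share the IGFBP domain gave 5 calls of 6 tested between EIR and parental cells, 4 higher and 1 lower, with a median log2 fold change of 1.70, beside 25.5% and 0.00 over all genes tested. In edgeR 3 of them were called, and the list was chosen with earlier results known. The matricellular genes CCN1, CCN2 and CCN5 were higher, with log2 fold changes of 1.98 (SE 0.21, adjusted p = 1.8e-19 in DESeq2), 2.46 (SE 0.50, adjusted p = 1.6e-05) and 2.54 (SE 0.82, adjusted p = 0.011). CCN1 and CCN2 are widely used as readouts of YAP and TEAD activity. CRIM1 was higher too (0.86, adjusted p = 6.7e-05 in DESeq2), and KAZALD1 was lower, falling from 466 normalized counts to between 86.1 and 133 (log2 fold change -2.15, adjusted p = 2.1e-07 in DESeq2). CCN5 and CRIM1 did not pass in edgeR (adjusted p = 0.068 and 0.062), nor CCN5 without untreated clone 4 or treated clone 3, with the libraries of each clone summed (adjusted p = 0.20 in DESeq2) or with treatment as covariate. Between the clones CCN2 was higher in clone 4 (0.88, adjusted p = 0.0043 in DESeq2) and CCN3 lower (-1.93, adjusted p = 1.6e-08), and CCN2 lost this call when either library of clone 3 was left out.

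**Figure D5:**
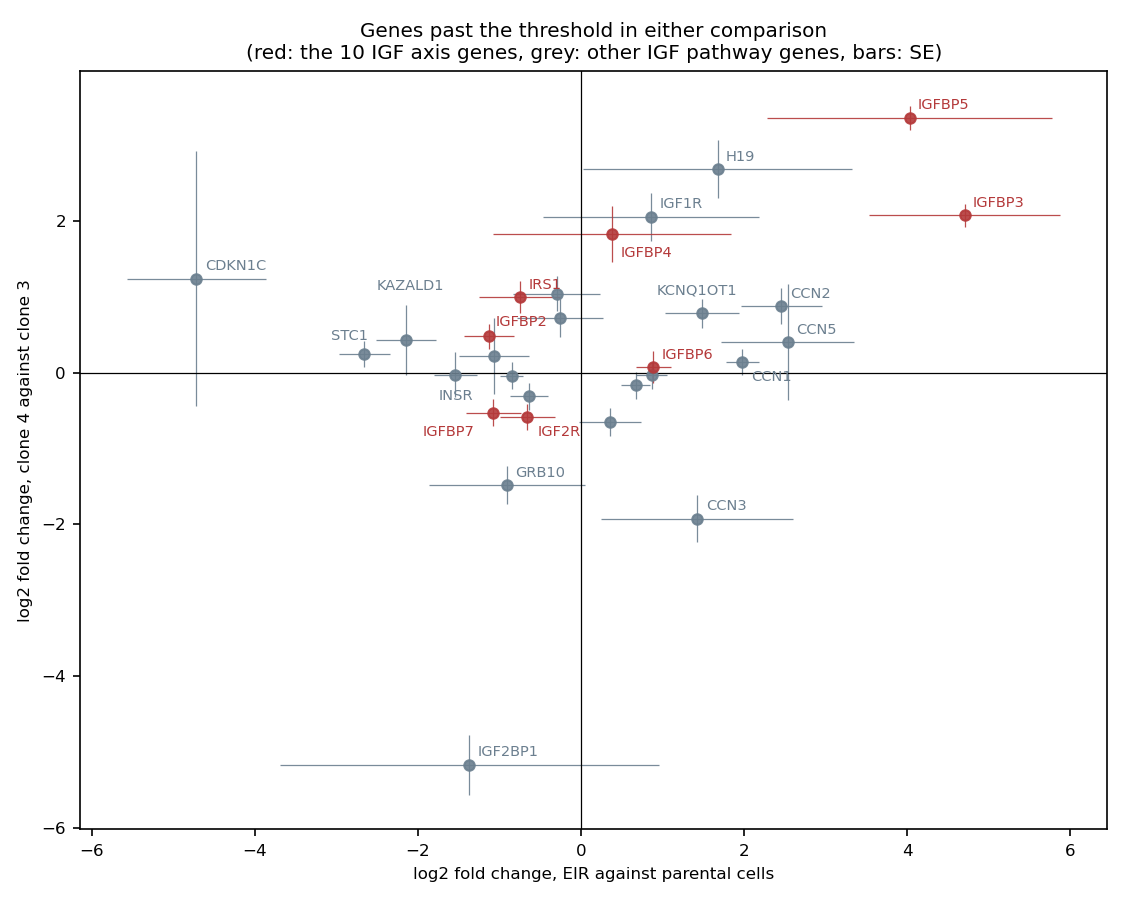
Log2 fold change of EIR against parental cells (x axis) and of clone 4 against clone 3 (y axis) for genes called in either comparison by DESeq2, with the 8 such members in red, other pathway genes in grey (unlabelled near the origin) and bars of 1 SE. IGFBP5 (4.03 and 3.36) and IGFBP3 (4.70 and 2.07) lie at the upper right, and IGF2BP1 lies lowest (-5.17 between the clones).

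IGF2BP1, one of 3 RNA-binding proteins first found on IGF2 mRNA, had 803 normalized counts in parental cells, 558 and 649 in clone 3, and only 12.2 and 22.2 in clone 4 (log2 difference -5.17, SE 0.40, adjusted p = 2.6e-36 in DESeq2). IGF2BP2 was lower in EIR cells of either clone (log2 fold change -0.85, SE 0.14, adjusted p = 3.6e-08 in DESeq2).

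The imprinted cluster around IGF2 on chromosome 11 gave calls in both directions. H19, the maternally expressed RNA beside IGF2, was higher in clone 4, with 183 and 500.4 normalized counts against 33.3 and 67.2 in clone 3 and 61.4 in parental cells (log2 difference 2.68, SE 0.38, adjusted p = 1.7e-10 in DESeq2). CDKN1C, an inhibitor of cyclin-dependent kinases, fell from 191 normalized counts to 12.7 or fewer (log2 fold change -4.72, SE 0.85, adjusted p = 8.9e-07 in DESeq2, edgeR adjusted p = 0.0099). KCNQ1OT1 was higher in EIR cells (1.48, adjusted p = 0.0072 in DESeq2) and higher again in clone 4 (0.78, adjusted p = 0.001), in neither case by edgeR (adjusted p = 0.11 and 0.058). The call against parental cells was also lost with treatment as covariate (adjusted p = 0.065 in DESeq2), and the call between the clones was lost when either library of clone 3 was left out. SLC22A18 was lower at the edge of the threshold (-1.06, adjusted p = 0.0496 in DESeq2) and missed it in edgeR (adjusted p = 0.16) and in 8 other alternatives, with -0.56 after GC correction (adjusted p = 0.40 in DESeq2).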

How the data were processed

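RNA-seq was performed on 5 libraries of TOV21G cells prepared with a stranded total RNA kit. The authors aligned reads to hg19 with Bowtie2 and deposited expected counts per gene from RSEM (version 1.2.3 in the submitters' processing notes, while the study's methods name another release), not normalized. All deposited values were whole numbers (0 were not). The counts summed to 25479238 to 30764963 per library. Of 30476 Ensembl identifiers 95.8% matched GENCODE 44 on GRCh37, and the rest held 3.06% of counts.

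DESeq2 1.42.0 (two-sided Wald test with its default size factors and a Benjamini-Hochberg adjusted p below 0.05) in R 4.3.3 compared the 4 EIR libraries with the parental library, clone 4 with clone 3 with treatment as covariate, and GSK126-treated with untreated EIR libraries. DESeq2, named in the methods of the study, was the main test in place of edgeR 4.0.16. All genes entered each fit, which was tested on simulated data. With 1 parental library the spread came from the EIR libraries alone. The clone number pairs treated with untreated libraries, since they were the same clone (correlation of deviations 0.862 over 11564 genes averaging 100 or more normalized counts). The main fit of treated against untreated libraries held no clone term and so left this pairing out. The replicate block added it as an alternative. The members and lists were chosen with earlier results of these data known. All 10 members are named, as are list genes called in EIR against parental cells or between clones, IGF1, IGF1R and INSR, and the 3 genes closest to IGFBP4. Count ratios carry exact 95% intervals for counting error only. Levels per kb used the median transcript length, with the longest as an alternative and the canonical transcript added after seeing the data. Further alternatives were edgeR, TMM and total count scaling, a filter of 10 counts in 2 libraries, GC correction, summing the libraries of a clone, covariates, the replicate block and leaving out each EIR library. RefSeq promoter windows matched 7 of the 10 members.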

Additional observations from a re-analysis of the deposited data

Results flagged for a closer look

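The clones had the same selection and treatments, yet the test of their difference passed for 7 members and 10 other pathway genes. It passed for 9.83% of all genes tested, a share that is no test of members and lists chosen with earlier results known. The log2 differences of clone 4 minus clone 3 were 0.48 for IGFBP2, 2.07 for IGFBP3, 1.83 for IGFBP4, 3.36 for IGFBP5, -0.53 for IGFBP7, -0.58 for IGF2R and 1.00 for IRS1. Among the pathway genes they were 2.06 for IGF1R, 0.72 for IRS2, -1.48 for GRB10, 1.04 for GRB14, -0.65 for ADAM9, 0.88 for CCN2, -1.93 for CCN3, -5.17 for IGF2BP1, 2.68 for H19 and 0.78 for KCNQ1OT1. Each clone contributed 1 untreated and 1 treated library, and what set the clones apart was not tested.

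IGFBP7 moved in opposite directions with GSK126, by 0.098 on the log2 scale in clone 3 and by -0.48 in clone 4, with 1 library per state, and the difference between the clones in this response was not tested. CCN1 had 1 EIR library far from the others, treated clone 4 with 4384 normalized counts against 3556 to 3661, and the gap was 0.874 of the range of the 4. How often such a gap arises by chance over the genes looked at was not tested, and these 4 libraries are 2 clones in 2 states.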

How the results depend on the processing

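Of the tested values of members and named pathway genes recomputed under the alternatives, 589 kept their direction and side of the threshold, 59 lost the call, 3 gained it and 14 changed direction, none of them called in either setting. Against parental cells IGFBP4 turned to -0.79 with treatment as covariate, and GC correction turned IRS2 to 0.13 and ADAM9 to -0.092, as it turned INSR between the clones to 0.023. Leaving out 1 library gave -0.60 to 0.71 for IGFBP4 against parental cells and, between the clones, -0.092 to 0.23 for IGFBP6, -0.24 to 0.82 for IGF1, -0.21 to 0.14 for INSR, -0.041 to 0.49 for STC1, -0.0044 to 0.27 for CCN1, -0.16 to 0.064 for CRIM1 and -0.095 to 0.51 for SLC22A18. For EIR against parental cells DESeq2 called 4157 genes, edgeR 1746, the summed libraries of each clone 1914 and treatment as covariate 1998, and leaving out 1 EIR library gave 2837 to 4024. STC1 between the clones and CCN3 against parental cells passed only without untreated clone 4 (adjusted p = 0.023 for each). Members called were 4, and 2 in edgeR. Pathway genes called were 13, and 7 in edgeR and 8 with treatment as covariate. Between the clones 1739 genes were called, and 831 to 2800 when 1 library was left out. That also gave 3 to 6 members against 7 and 5 to 11 pathway genes against 10. These fits carry no treatment covariate, and where a clone is left with 1 library, that library is assumed to vary like the others. Between GSK126-treated and untreated libraries DESeq2 called 1 gene and edgeR 0, with 117 and 232 genes at an unadjusted p under 0.05, and leaving out 1 library gave 1 to 25. The replicate block gave 4 genes, and it changed no call of a pathway gene. The share of IGFBP3 and IGFBP5 in untreated clone 4 was 71.9%, 44.6% and 40.6% with the median, longest and canonical transcript, so shares are comparable between libraries but not firm as levels. The causes of these differences between settings were not tested. With 1 parental library, the error of the parental values is unknown, and genes at or under 3 counts, IGF2 and IGFBP1 in parental cells and clone 3, were too shallow for any statement on change.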
